A study of Mus musculus with 6 samples.

Results

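Prostaglandin and leukotriene synthesis was described through 10 genes: Pla2g4a, Ptgs1, Ptgs2, Ptges, Hpgds, Ptger4, Alox5, Alox5ap, Lta4h and Ltc4s. They were taken by symbol through the GENCODE M21 annotation of GRCm38, and each symbol matched 1 of the 41388 Ensembl genes listed per library. All 10 were among the 11303 genes with enough counts to be tested. RNA was sequenced from foamy macrophages in 3 libraries and from non-foamy macrophages in 3 libraries. Foamy macrophages were sorted as live CD64+ CD11b+ cells that were bright for BODIPY, which stains neutral lipid, and high in side scatter, and non-foamy macrophages were sorted on the same antibodies as cells low in both. Every library came from enzymatically digested aortic intima of ApoE -/- mice on the C57BL/6 strain, 6 animals kept for 28 weeks on a diet that the series design abbreviates as WD. The sources used here give neither age at harvest nor which animals went into which library, so the p-values cover only how these libraries vary, and that variation may be technical. Foamy libraries held 24279802, 18592421 and 20641741 counts in genes, and non-foamy libraries held 15628627, 16863185 and 24619075. Apoe, the gene disrupted in all of these mice, had 72 to 126 counts per foamy library and 66 to 107 per non-foamy library, and no wild-type library was analysed here.

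In cells of the myeloid lineage, cytosolic phospholipase A2 frees arachidonic acid from membrane phospholipid, and the acid then enters either of 2 routes. In the cyclooxygenase route, Ptgs1 or Ptgs2 makes prostaglandin H, which terminal synthases turn into prostaglandin E, D, F, prostacyclin or thromboxane. In the 5-lipoxygenase route, Alox5 works with its membrane partner Alox5ap to make leukotriene A, which Lta4h turns into leukotriene B and Ltc4s into the cysteinyl leukotriene C. Macrophages are a known source of both classes of lipid, and Ptgs2 is a known early-response gene of inflammatory stimulation.

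Foamy libraries held less RNA of the genes that start both routes. Of the 10 members, 5 fell by edgeR's quasi-likelihood test at an adjusted p of 0.05: Pla2g4a, both cyclooxygenase genes Ptgs1 and Ptgs2, the prostaglandin E receptor gene Ptger4, and the 5-lipoxygenase gene Alox5. Of all tested genes, 2.90% were called lower and 5.41% in either direction. No member rose by edgeR, DESeq2 or limma-voom, and edgeR called 2.50% of all tested genes higher. At an unadjusted edgeR p under 0.05, 1 member (Hpgds) was higher and 6 were lower. Of all 11303 tested genes, 976 were higher and 1143 lower at that unadjusted level. The downstream enzymes and partners Ptges, Hpgds, Alox5ap, Lta4h and Ltc4s did not pass the test. Over the 10 members the median log2 fold change was -1.26, and over all tested genes it was -0.04, where a negative value means lower in foamy libraries. In these bulk libraries, fewer cells of a type and less RNA per cell cannot be told apart.

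**Figure D1:**
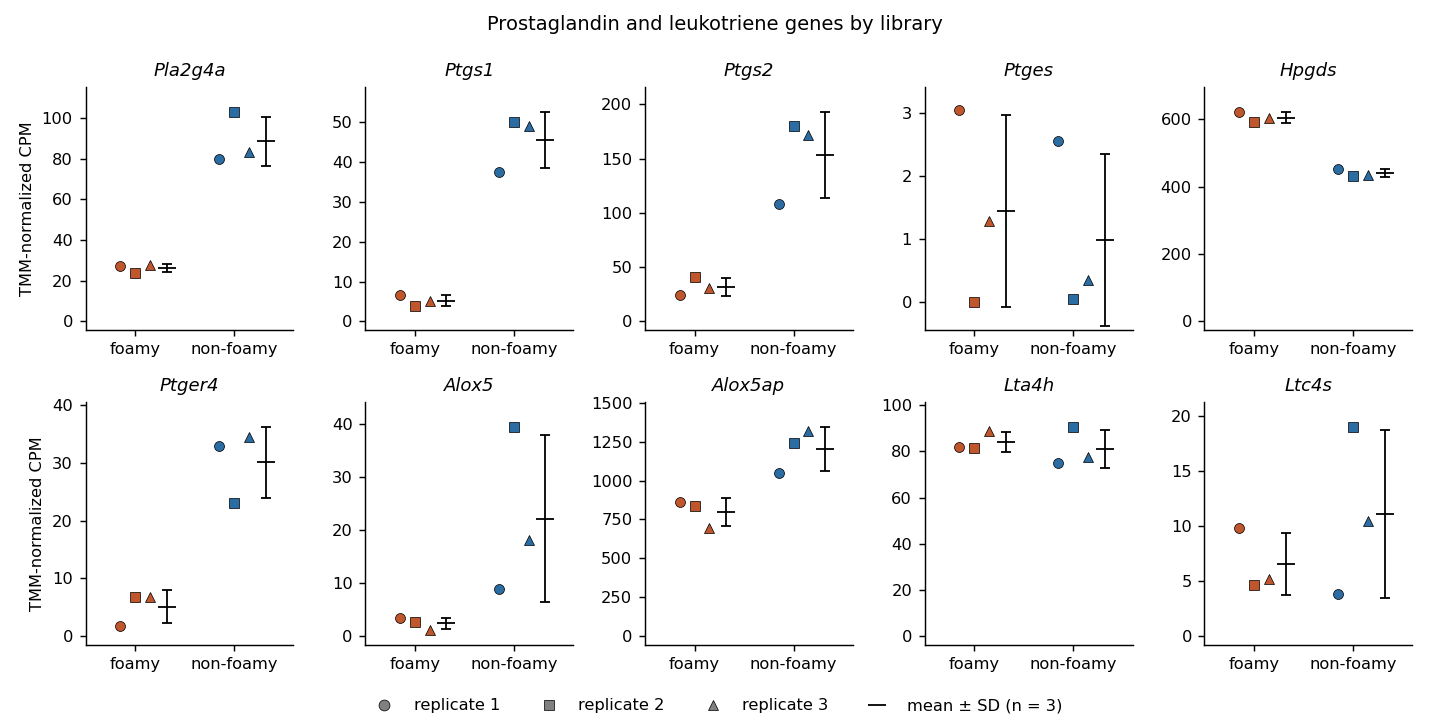
TMM-normalized CPM (y axis, linear from near 0 in each panel) of the 10 genes in 3 foamy and 3 non-foamy libraries (x axis); symbols mark the replicate numbers, and the bar is the mean ± SD. The foamy points lie below all non-foamy points for Pla2g4a, Ptgs1, Ptgs2, Ptger4, Alox5 and Alox5ap and above them for Hpgds, and the groups overlap for Ptges, Lta4h and Ltc4s.

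Pla2g4a (ENSMUSG00000056220, chr1:149829618-149961290 on the minus strand of GRCm38, as for every gene position given here) encodes the cytosolic phospholipase A2 that starts the pathway. It stood at 27.0, 23.8 and 27.9 CPM (the count relative to the TMM-scaled library size, the unit of every level below unless RPKM is named) in foamy libraries, against 80.0, 103 and 83.3 CPM in non-foamy libraries. All foamy values lay below all non-foamy values, and the means were 26.2 ± 2.11 CPM for foamy libraries and 88.6 ± 12.2 CPM for non-foamy libraries (SD, n = 3 each). It was 3.38-fold lower in foamy libraries (log2 change of -1.76 with an SE of 0.22, edgeR adjusted p = 0.00101). Behind these values lay 428 to 568 counts per foamy library and 1477 to 2116 per non-foamy library.

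Ptgs1 (ENSMUSG00000047250, chr2:36230426-36252272 on the plus strand) encodes the cyclooxygenase that many cells express constitutively. It stood at 6.64, 3.79 and 5.18 CPM in foamy libraries and at 37.5, 50.0 and 49.2 CPM in non-foamy libraries. The groups were far apart, with foamy counts of 68 to 140 and non-foamy counts of 692 to 1249. The gene was 8.73-fold lower in foamy libraries (log2 change of -3.13 with an SE of 0.32, edgeR adjusted p = 0.000259). Ptgs2 (ENSMUSG00000032487, chr1:150100031-150108227 on the plus strand) encodes the inducible cyclooxygenase. It stood at 23.9, 40.7 and 30.8 CPM in foamy libraries, against 108, 180 and 172 CPM in non-foamy libraries. Non-foamy replicate 1 was the lowest of its group for both cyclooxygenase genes and still lay above every foamy library. Ptgs2 was 4.82-fold lower in foamy libraries (log2 change of -2.27 with an SE of 0.28, edgeR adjusted p = 0.000841).

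Within each library the balance of the cyclooxygenases was read as a ratio of counts per kilobase, with 0.5 added to each count, which does not depend on how libraries are scaled. Ptgs2 exceeded Ptgs1 in all 6 libraries, by 3.04, 9.04 and 5.03 times in foamy and by 2.43, 3.06 and 2.96 times in non-foamy libraries. The foamy ratios were spread more widely and overlapped the non-foamy ratios in replicate 1. The mean log2 ratio was 2.37 ± 0.79 in foamy and 1.49 ± 0.18 in non-foamy libraries, a difference of 0.88 (two-sided exact permutation p = 0.20, adjusted p = 0.60 over 3 ratios). With 3 libraries against 3, the smallest p this test can give is 0.10, so the larger fall of Ptgs1 than of Ptgs2 was not shown to exceed the spread between libraries. Without foamy replicate 2 the difference was 0.48.

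The stretches before the start sites of the enzyme genes that fell are given for reference, as RefSeq has them on GRCm38.p6. Each runs over the 250 bases before the annotated start, read 5′ to 3′ on the gene's strand, at chr1:149961291-149961540 (minus strand) for Pla2g4a, chr2:36230176-36230425 (plus) for Ptgs1, chr1:150099781-150100030 (plus) for Ptgs2 and chr6:116461179-116461428 (minus) for Alox5. Capitals mark letters that match any of 8 motifs.
Pla2g4a: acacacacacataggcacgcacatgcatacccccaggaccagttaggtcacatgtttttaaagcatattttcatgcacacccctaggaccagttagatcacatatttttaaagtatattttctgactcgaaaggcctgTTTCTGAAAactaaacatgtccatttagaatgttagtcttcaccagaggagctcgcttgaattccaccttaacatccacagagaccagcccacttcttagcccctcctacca
Ptgs1: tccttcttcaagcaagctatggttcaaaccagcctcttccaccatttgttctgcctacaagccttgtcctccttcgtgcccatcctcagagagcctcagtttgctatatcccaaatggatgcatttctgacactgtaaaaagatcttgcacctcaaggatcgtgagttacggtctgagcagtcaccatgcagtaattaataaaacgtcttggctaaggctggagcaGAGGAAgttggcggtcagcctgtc
Ptgs2: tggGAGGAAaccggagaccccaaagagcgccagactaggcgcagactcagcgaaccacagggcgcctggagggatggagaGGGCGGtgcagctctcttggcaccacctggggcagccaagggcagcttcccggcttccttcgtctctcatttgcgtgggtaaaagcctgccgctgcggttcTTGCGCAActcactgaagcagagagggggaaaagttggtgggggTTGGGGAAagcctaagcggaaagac
Alox5: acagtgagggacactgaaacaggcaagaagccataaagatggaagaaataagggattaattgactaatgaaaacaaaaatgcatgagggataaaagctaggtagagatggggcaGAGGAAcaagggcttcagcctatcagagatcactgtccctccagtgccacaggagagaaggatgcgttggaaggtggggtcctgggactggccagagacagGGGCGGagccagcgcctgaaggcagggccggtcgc
The motifs were searched on both strands, except the TATA box, searched on the gene's strand. They were C/EBP (TTNNGNAA, in 36.8% of 32851 promoter entries of the same length), the GC box (GGGCGG, 32.7%), PU.1 (GAGGAA, 23.3%), the cAMP response half-site (TGACG, 17.8%), the TATA box (TATAA, 16%), AP-1 (TGANTCA, 6.75%), the E-box (CACGTG, 6.02%) and NF-kB (3.90%). In Ptgs2 the capitals are a PU.1 match, a GC box match and 2 C/EBP matches, of which TTGCGCAA lies from -69 to -62 relative to the start. In Pla2g4a they are 2 C/EBP matches on opposite strands that overlap each other, in Ptgs1 a PU.1 match at -24 to -19, and in Alox5 a PU.1 and a GC box match. A start entry was found for 9 members, whose windows held no AP-1, E-box, NF-kB, TATA box or cAMP half-site letters. Bases beyond either end of these windows were not searched, so motifs there cannot be seen. For Ptges the entry's start lay 26566 bases from the gene start used for the counts. No motif matched in all 4 windows: PU.1 matched in Ptgs1, Ptgs2 and Alox5, and C/EBP in Pla2g4a and Ptgs2. Members that were not called held these motifs too: PU.1 matched in Ptges, Hpgds and Lta4h, and C/EBP in Ptges and Hpgds. The window of Ptger4, which fell, held GC box matches only, and that of Ltc4s held no match.

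In the 3′ UTRs, the pentamer ATTTA, the core of AU-rich elements that destabilise many early-response mRNAs, occurred 14 times in the 2445 bases after the Ptgs2 stop codon in GENCODE M21, more than in 97.0% of 20604 coding genes. Its homologue Ptgs1 had 0 in 921 bases. The densest stretch in Ptgs2 began 12 bases into the 3′ UTR, at chr1:150105794-150105823 (GRCm38, plus strand), and is shown with its ATTTA letters in capitals.
Ptgs2 3′ UTR: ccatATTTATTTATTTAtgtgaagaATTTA
Pla2g4a had 4 in 443 bases, Ptger4 5 in 1233, Alox5 2 in 642, Alox5ap 2 in 419 and Hpgds 2 in 2631, while Ptges, Lta4h and Ltc4s had 0. Over all coding genes the median was 1 per 3′ UTR. Per kilobase Pla2g4a held more, at 9.03, than Ptgs2, at 5.73. The members that fell thus included genes with many copies of ATTTA and a gene without it (Ptgs1).

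Neither terminal prostaglandin synthase among the members was called. Hpgds (ENSMUSG00000029919, chr6:65117293-65144908 on the minus strand) makes prostaglandin D in cells of blood origin. It stood at 621, 591 and 603 CPM in foamy libraries and at 453, 431 and 435 CPM in non-foamy libraries. Every foamy value lay above every non-foamy value, and the replicates were close, at 605 ± 15.2 CPM for foamy libraries and 440 ± 11.9 CPM for non-foamy libraries (SD, n = 3 each). The difference did not pass the test over all genes (log2 change of 0.46 with an SE of 0.15, edgeR adjusted p = 0.122). With total counts as the only scaling it was 0.19. Ptges (ENSMUSG00000050737, chr2:30889471-30929863 on the minus strand), the inducible prostaglandin E synthase, was near the limit of detection, with 64, 0 and 24 counts in foamy and 47, 1 and 9 counts in non-foamy libraries. For foamy replicate 2, a count of 0 allows up to 0.167 CPM (3 counts) by counting error alone. The groups overlapped throughout (log2 change of 0.56 with an SE of 1.52, edgeR adjusted p = 0.905), and without foamy replicate 1 the sign turned to -0.58. Per library, the ratio of Ptges to Hpgds per kilobase was at most 0.0045 in foamy and 0.00518 in non-foamy libraries (mean log2 difference -0.29, two-sided exact permutation p = 0.90). This ratio also changed sign, to 1.75 without foamy replicate 2 and to 0.98 without non-foamy replicate 1.

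Ptger4 (ENSMUSG00000039942, chr15:5206661-5244187 on the minus strand) encodes the EP4 receptor, through which prostaglandin E raises cAMP. It stood at 1.76, 6.85 and 6.80 CPM in foamy libraries, against 32.9, 23.1 and 34.4 CPM in non-foamy libraries. Foamy replicate 1 was the lowest, with 37 counts, and the groups did not overlap. The gene was 5.88-fold lower in foamy libraries (log2 change of -2.56 with an SE of 0.49, edgeR adjusted p = 0.012). Exons of Ttc33 and Gm15937 on the opposite strand overlap 16.5% of its exon bases, and the sources used here do not give the strand setting of the counting. Gm15937, which shares 1015 of these bases, had at most 2 counts in any library. Ttc33, which shares 82 bases, had 1361 to 1784 counts per foamy library and 897 to 1531 per non-foamy library, and its part in the Ptger4 counts was not tested.

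In the leukotriene route, the fall was seen in Alox5 itself. Alox5 (ENSMUSG00000025701, chr6:116410077-116461178 on the minus strand) stood at 3.37, 2.62 and 1.24 CPM in foamy libraries, with 71, 47 and 23 counts, and at 8.83, 39.5 and 18.2 CPM in non-foamy libraries, with 163, 717 and 463 counts. The groups did not overlap, but the non-foamy libraries were widely spread, with means of 2.41 ± 1.08 CPM for foamy libraries and 22.2 ± 15.7 CPM for non-foamy libraries (SD, n = 3 each). The gene was 9.16-fold lower in foamy libraries (log2 change of -3.20 with an SE of 0.61, edgeR adjusted p = 0.0115). Of the 5 calls, it was the only one that any of 16 alternatives ended. It was lost with limma-voom (-3.02, adjusted p = 0.063) and without foamy replicate 2 (-3.25, edgeR adjusted p = 0.060), foamy replicate 3 (-2.88, 0.061) or non-foamy replicate 2 (-2.48, 0.064).

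Alox5ap (ENSMUSG00000060063, chr5:149265058-149288045 on the plus strand), the membrane protein that presents arachidonic acid to 5-lipoxygenase, had the highest level of the members, both in CPM and per kilobase. It stood at 865, 837 and 693 CPM in foamy libraries and at 1046, 1243 and 1320 CPM in non-foamy libraries. The groups did not overlap, and the gene was 1.51-fold lower in foamy libraries without passing the edgeR test (log2 change of -0.59 with an SE of 0.17, adjusted p = 0.079). It was called by DESeq2 (-0.59, adjusted p = 0.032), with total counts as the only scaling (-0.86, edgeR adjusted p = 0.011) and without non-foamy replicate 1 (-0.69, 0.037). DESeq2 called 6 of the 10 members lower and 5.71% of all tested genes lower.

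The enzymes after leukotriene A differed in how closely libraries agreed. Lta4h (ENSMUSG00000015889, chr10:93453396-93484896 on the plus strand) makes leukotriene B. It stood at 81.8, 81.6 and 89.0 CPM in foamy libraries and at 75.0, 90.6 and 77.7 CPM in non-foamy libraries. The values interleaved, with a log2 fold change of 0.05 (SE 0.19, edgeR adjusted p = 0.935), which was -0.22 with total counts as the only scaling. Ltc4s (ENSMUSG00000020377, chr11:50236469-50238616 on the minus strand) makes leukotriene C. It stood at 9.78, 4.68 and 5.18 CPM in foamy libraries and at 3.79, 19.0 and 10.5 CPM in non-foamy libraries. The groups overlapped, since non-foamy replicate 1 was the lowest of the 6 (log2 change of -0.76 with an SE of 0.59, edgeR adjusted p = 0.567; -0.13 without non-foamy replicate 2 and -1.17 without non-foamy replicate 1). In the non-foamy group, Ltc4s and Alox5 were both lowest in replicate 1 and highest in replicate 2, an order over 3 libraries that was not tested. The within-library ratio of Ltc4s to Lta4h per kilobase was 0.336, 0.162 and 0.164 in foamy and 0.143, 0.591 and 0.380 in non-foamy libraries (mean log2 difference -0.61, two-sided exact permutation p = 0.60). Exons of Gm26542, with at most 8 counts in a library, overlap 26.1% of the Ltc4s exon bases on the opposite strand.

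**Figure D2:**
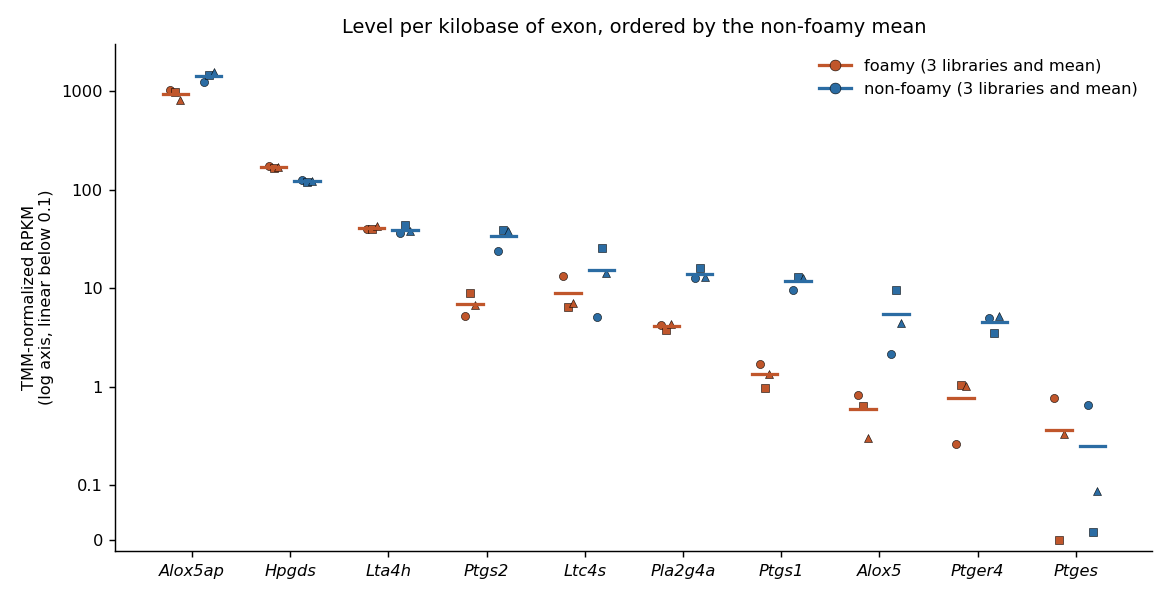
TMM-normalized RPKM (y axis, log scale, linear below 0.1) of the 10 genes (x axis, ordered by the non-foamy mean); points are 3 foamy and 3 non-foamy libraries and lines their means. Alox5ap, Hpgds and Lta4h led in both groups, and the Ptgs2 mean was 6.94 RPKM in foamy and 33.4 RPKM in non-foamy libraries.

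Levels per kilobase of exon put the members in order. Alox5ap led with 937 ± 109 RPKM in foamy and 1412 ± 166 RPKM in non-foamy libraries, followed by Hpgds with 169 ± 4.24 RPKM in foamy and 123 ± 3.31 RPKM in non-foamy libraries (mean ± SD, n = 3 each). Lta4h came next in both groups, with 40.7 ± 2.04 RPKM in foamy and 39.3 ± 4.03 RPKM in non-foamy libraries. In foamy libraries Ltc4s (8.89 RPKM) and Ptgs2 (6.94 RPKM) came next and overlapped each other, then Pla2g4a (4.10 RPKM), and then Ptgs1 (1.34 RPKM), Ptger4 (0.772 RPKM), Alox5 (0.587 RPKM) and Ptges (0.367 RPKM), each overlapping the next. In non-foamy libraries Ptgs2 (33.4 RPKM) came after Lta4h and its values overlapped those of Lta4h and of Ltc4s (15.1 RPKM), the next in order. Pla2g4a (13.9 RPKM) and Ptgs1 (11.7 RPKM) followed with overlapping values, then Alox5 (5.40 RPKM) and Ptger4 (4.53 RPKM), and Ptges was last at 0.251 RPKM. The RNA of the 5-lipoxygenase partner Alox5ap thus exceeded that of Alox5 itself in every library of both groups.

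**Figure D3:**
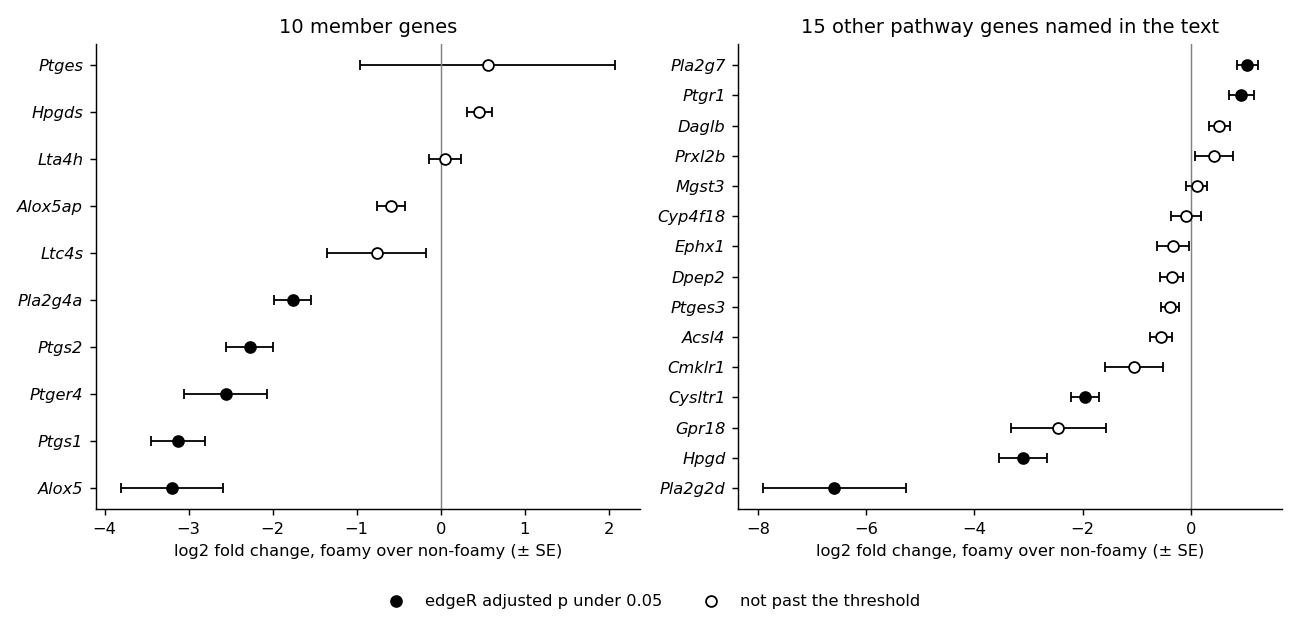
Log2 fold change of foamy over non-foamy libraries ± SE (x axis) for the 10 members (left) and 15 other pathway genes named in the text (right); filled points passed an edgeR adjusted p of 0.05. Of the members, the 5 filled points lie between -3.20 and -1.76, and of the other genes 3 filled points lie below 0 and 2 above.

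Other genes of the pathway were read from 5 lists with 68 genes, of which 41 were tested. Of these, 3 fell and 2 rose by edgeR, which called 2.90% of all tested genes lower and 2.50% higher. Their median log2 fold change was -0.06, close to the -0.04 of all tested genes. Of 14 tested genes for arachidonate release and reacylation, 1 rose and 1 fell (median 0.02). Pla2g7, the lipoprotein-associated phospholipase that cleaves platelet-activating factor and oxidised phospholipids, stood at 1878, 1584 and 2274 CPM in foamy libraries and at 862, 870 and 1044 CPM in non-foamy libraries. It was 2.07-fold higher in foamy libraries (log2 change of 1.05 with an SE of 0.19, edgeR adjusted p = 0.00808), opposite in direction to Pla2g4a; the call was lost without foamy replicate 3 (0.91) or non-foamy replicate 2 (1.01), and in the test against a 1.5-fold change (adjusted p = 0.10). Pla2g2d, a secreted phospholipase A2, had 1, 1 and 0 counts in foamy libraries and 20, 139 and 77 counts in non-foamy libraries. Its ratio, non-foamy over foamy, was 109, with an exact 95% counting interval of 30 to 909 (edgeR adjusted p = 0.0148). The Pla2g2d call was lost without any of foamy replicates 1 (fitted log2 fold change -6.85), 2 (-6.98) and 3 (-6.08), without non-foamy replicate 2 (-5.66) and with limma-voom (-5.77), and the stricter filter on low counts left the gene untested. Acsl4, which activates arachidonic acid for reacylation, had a log2 fold change of -0.55 (SE 0.20, edgeR adjusted p = 0.156), and Daglb, a diacylglycerol lipase, one of 0.53 (SE 0.20, adjusted p = 0.179).

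None of 6 tested genes among the other prostanoid synthases was called by edgeR, DESeq2 or limma-voom, while 1 was lower and 1 higher at an unadjusted p under 0.05 (median 0.39). Ptges3, a co-chaperone also known as cytosolic prostaglandin E synthase, averaged 349 ± 29.0 CPM in foamy libraries, against 454 ± 19.6 CPM in non-foamy libraries (log2 change of -0.38 with an SE of 0.16, edgeR adjusted p = 0.23) and was called lower with total counts as the only scaling (-0.65). Prxl2b, a prostaglandin F synthase, had a log2 fold change of 0.43 (SE 0.35). None of 4 tested genes among the other lipoxygenase and leukotriene enzymes was called by these tools either, with 1 lower and 0 higher at an unadjusted p under 0.05 (median -0.12). Dpep2, a dipeptidase that trims cysteinyl leukotrienes, averaged 1136 ± 249 CPM in foamy libraries, against 1452 ± 238 CPM in non-foamy libraries (a log2 change of -0.35 with an SE of 0.21), and Mgst3 had a log2 fold change of 0.11 (SE 0.19), or -0.16 with total counts only. Alox15, the macrophage 12/15-lipoxygenase of mice, had at most 2 counts in any library.

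Of 9 tested genes for breakdown and transport, 1 fell and 1 rose (median -0.09). Hpgd, the dehydrogenase that inactivates prostaglandins, stood at 16.3, 16.9 and 6.20 CPM in foamy libraries, against 61.5, 167 and 111 CPM in non-foamy libraries. The groups did not overlap, and Hpgd was 8.59-fold lower in foamy libraries (log2 change of -3.10 with an SE of 0.44, edgeR adjusted p = 0.00226). Ptgr1, a reductase of prostaglandin metabolites that also inactivates leukotriene B, was 1.92-fold higher, at 51.6 ± 8.67 CPM in foamy libraries, against 26.9 ± 0.695 CPM in non-foamy libraries (log2 change of 0.94 with an SE of 0.24, edgeR adjusted p = 0.0472). Its call was lost without any of foamy replicates 1 (1.07), 2 (0.91) and 3 (0.84) and non-foamy replicates 1 (0.92), 2 (0.96) and 3 (0.94). It was also lost with total counts as the only scaling (0.67), with limma-voom (0.92), with the replicate block (0.92) and in the test against a 1.5-fold change. Cyp4f18, which oxidises leukotriene B, and the epoxide hydrolase gene Ephx1 had log2 fold changes of -0.09 (SE 0.28) and -0.33 (SE 0.29), with signs that turned under some alternatives. Among 8 tested receptors 1 fell by edgeR and by limma-voom, and 2 by DESeq2 (median -1.5). None rose by edgeR, DESeq2 or limma-voom, with 2 lower and 0 higher at an unadjusted p under 0.05. Cysltr1, the receptor of cysteinyl leukotrienes, stood at 21.3, 30.5 and 26.3 CPM in foamy libraries and at 74.6, 115 and 114 CPM in non-foamy libraries. It was 3.89-fold lower in foamy libraries (log2 change of -1.96 with an SE of 0.26, edgeR adjusted p = 0.00126). The chemerin receptor gene Cmklr1 (log2 fold change -1.05, SE 0.54) and the orphan receptor gene Gpr18 (-2.45, SE 0.88) did not pass, although DESeq2 called Gpr18 lower.

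Markers of other cells and of tissue handling moved in the same libraries, and their part in the falls of Ptgs1, Ptgs2, Ptger4, Pla2g4a and Alox5 was not tested. Immediate early and heat shock genes, a class with which the inducible Ptgs2 is often grouped, fell in 13 of 19 by edgeR, in 16 by DESeq2 and in 12 by limma-voom. None rose by edgeR, DESeq2 or limma-voom, while 1 was higher at an unadjusted p under 0.05. Of all 11303 tested genes, edgeR called 2.90% lower, DESeq2 called 5.71% lower and limma-voom called 259 lower. The summed level of the immediate early and heat shock genes was 3061, 2500 and 2796 CPM in foamy libraries. It was 5602, 7872 and 7700 CPM in non-foamy libraries. In the non-foamy group this sum and Ptgs2 were both lowest in replicate 1, as were Pla2g4a, Ptgs1 and Alox5. Ptger4 was lowest in non-foamy replicate 2. In the foamy group the sum was highest in replicate 1, as were Ptgs1 and Alox5. Ptgs2 and Ptger4 were lowest in foamy replicate 1, and Pla2g4a was highest in foamy replicate 3. These orders over 3 libraries were not tested. Of 13 monocyte markers 12 were tested, and by edgeR 7 fell, 1 (Msrb1) rose and 4 were not called. The monocyte sums were 324 to 387 CPM in foamy libraries and 841 to 1243 CPM in non-foamy libraries. These sums include Msrb1, at 163 to 178 CPM in foamy and 44.9 to 79.6 CPM in non-foamy libraries. Ccr2 was 58.7-fold lower in foamy libraries, F13a1 23-fold, Ly6c2 16-fold, Cx3cr1 5.82-fold and Fn1 2.32-fold. Plac8 had 0, 1 and 0 counts in foamy and 446, 409 and 630 in non-foamy libraries. Vcan had 0, 0 and 1 counts in foamy and 12, 61 and 26 in non-foamy libraries. Mast cells express Hpgds, Ltc4s and Alox5, but none of 10 mast cell markers had enough counts to be tested. The mast cell markers Cpa3, Tpsb2, Tpsab1, Cma1, Mcpt4, Fcer1a and Ms4a2 had at most 3 counts in any library, Kit had 0, 1 and 0 counts in foamy and 39, 0 and 8 counts in non-foamy libraries, and Hdc had 3, 2 and 0 counts in foamy and 71, 220 and 2 counts in non-foamy libraries. The mast cell sums were 0.0539 to 0.279 CPM in foamy libraries and 0.590 to 12.5 CPM in non-foamy libraries. Platelets express Ptgs1: of 9 platelet markers 2 were tested, Pf4 and Ppbp, and both fell by edgeR and DESeq2 but neither by limma-voom. Pf4, the bulk of the platelet sum, stood at 78.0, 70.6 and 54.6 CPM in foamy libraries, against 84.1, 226 and 211 CPM in non-foamy libraries. Among the untested markers, Itga2b had 2, 0 and 1 counts in foamy and 32, 6 and 12 in non-foamy libraries. Gp1ba had 0, 24 and 9 counts in foamy and 48, 0 and 0 in non-foamy libraries. Treml1 had 1, 1 and 18 counts in foamy and 1, 0 and 12 in non-foamy libraries. Gp1bb and Tubb1 had at most 6 counts in any library, and Gp9 and Gp6 at most 1. The platelet sums were 56.2 to 78.2 CPM in foamy libraries and 91.2 to 238 CPM in non-foamy libraries.

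Of 10 neutrophil markers 5 were tested, and by edgeR 1 fell (S100a9) and 1 rose (Mmp8). DESeq2 called 1 lower and 2 higher, and limma-voom called 0 lower and 1 higher. The neutrophil sums were 45.7 to 72.9 CPM in foamy libraries and 16.5 to 46.8 CPM in non-foamy libraries. Mmp8 stood at 29.9 to 44.7 CPM in foamy and 4.61 to 7.53 CPM in non-foamy libraries. Csf3r, not called by edgeR (adjusted p = 0.0634), stood at 13.3 to 25.1 CPM in foamy and 6.55 to 9.33 CPM in non-foamy libraries. The neutrophil marker Ly6g had at most 3 counts and Camp had 0. Of 9 dendritic cell markers 2 were tested, Kmo and Cd209a. Kmo fell by edgeR, which called 1 lower, as did limma-voom, while DESeq2 called 2 lower. The dendritic cell sums were 0.427 to 16.2 CPM in foamy libraries and 43.5 to 269 CPM in non-foamy libraries. Cd209a, which edgeR did not call (adjusted p = 0.278), stood at 0.19, 14.5 and 0.324 CPM in foamy libraries. In non-foamy libraries Cd209a stood at 178, 249 and 32.2 CPM, and Kmo at 14.1, 15.7 and 10.4 CPM. Of 6 B cell markers 2 were tested and Ighm fell, with sums of 94.2 to 124 CPM in foamy libraries and 579 to 694 CPM in non-foamy libraries. Of 10 T and NK cell markers 2 were tested (Cd4 and Klrb1c). Both rose by edgeR and DESeq2, and 1 by limma-voom. The T and NK cell sums were 17.1 to 25.0 CPM in foamy libraries and 0.975 to 3.80 CPM in non-foamy libraries. Cd4 alone stood at 11.4, 18.2 and 21.4 CPM in foamy libraries. Among the untested markers, Cd3e, Cd8a and Ncr1 had at most 2 counts in any library. Cd3d and Trac peaked at 28 and 23 counts in non-foamy replicate 3. Cd3g and Nkg7 peaked at 12 and 18 counts in foamy replicate 1, and Lck at 52 in foamy replicate 3. Of the markers of smooth muscle, endothelium and fibroblasts, 3, 3 and 5 were tested, with 0 calls by edgeR, DESeq2 or limma-voom and 0 at an unadjusted p under 0.05. Smooth muscle markers summed to 3.27 to 28.3 CPM in foamy libraries and 4.79 to 24.2 CPM in non-foamy libraries, endothelial markers to 9.97 to 15 CPM in foamy libraries and 13.4 to 16.7 CPM in non-foamy libraries, and fibroblast markers to 3.12 to 171 CPM in foamy libraries and 13.5 to 307 CPM in non-foamy libraries. All 10 macrophage markers were tested and present in every library, 3 rose (Lyz2, Cd68 and Mertk) and 3 fell (Csf1r, Adgre1 and Itgam). Their sums were 55545 to 63585 CPM in foamy libraries and 23954 to 37654 CPM in non-foamy libraries. Of the genes of the sorting antibodies, Fcgr1 (CD64) averaged 232 ± 44.8 CPM in foamy libraries and 182 ± 52.9 CPM in non-foamy libraries, and Itgam (CD11b) averaged 77.8 ± 7.82 CPM in foamy libraries and 142 ± 13.2 CPM in non-foamy libraries (SD, n = 3 each).

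**Figure D4:**
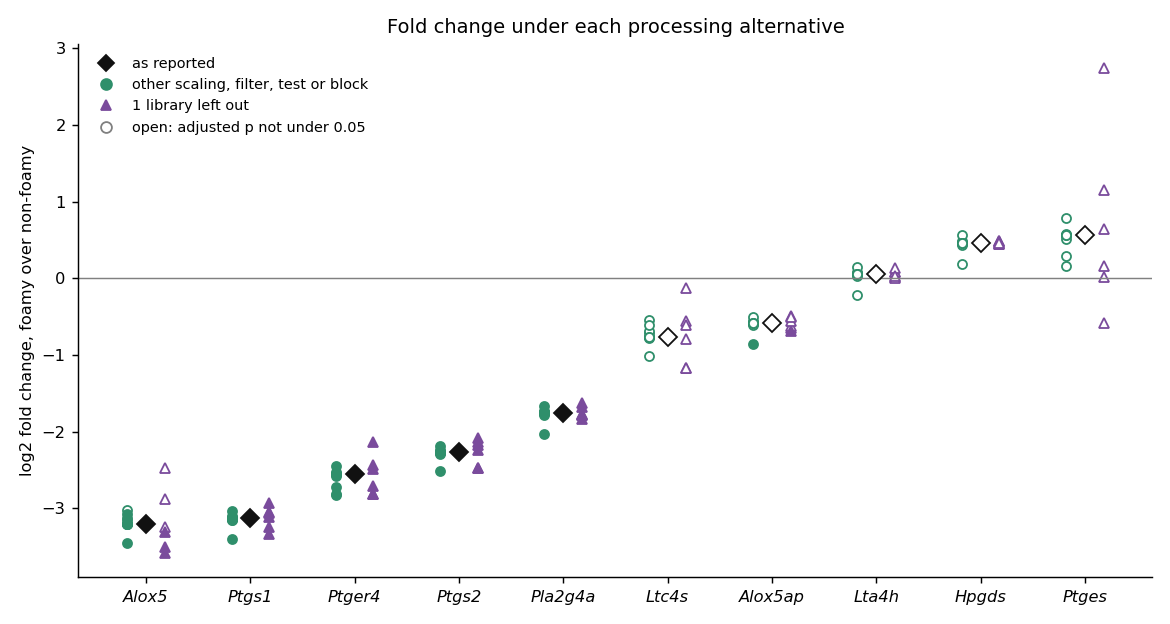
Log2 fold change of foamy over non-foamy (y axis) for each of the 10 genes (x axis) as reported (diamonds), under other scalings, filters, tests or the replicate block (circles), and with 1 library left out (triangles); open symbols did not reach an adjusted p under 0.05. Pla2g4a, Ptgs1, Ptgs2 and Ptger4 are filled throughout, Alox5 is open in 4 alternatives, and Ptges spreads on both sides of 0.

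Pla2g4a, Ptgs1, Ptgs2 and Ptger4 were called lower under all 16 alternatives, among them each library left out and a test against a 1.5-fold change, under which 1.51% of all tested genes were called lower. Their log2 fold changes over these alternatives ran from -2.03 to -1.63 for Pla2g4a, from -3.40 to -2.93 for Ptgs1, from -2.51 to -2.09 for Ptgs2 and from -2.83 to -2.13 for Ptger4. The groups did not overlap, with foamy below non-foamy, in 6 members and in 13.3% of all tested genes, and with foamy above in 1 member and in 12.4%.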

How the data were processed

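Bulk RNA-seq was analysed from 6 libraries. Per the submitters' processing notes, STAR 2.0.4b, Subread, featureCounts 1.4.5 and GRCm38 were used; the sources used here give neither strandedness nor how multi-mapping reads were treated. The deposited counts are raw whole numbers for each gene. CPM as deposited equals the count relative to all counts in genes, and the deposited RPKM equals that CPM per kilobase; both were checked on every gene to 1e-06 and not used further. No molecular identifiers are named per the labels' protocols, so the interval and the floor given here cover counting error alone. Depth ran from 15628627 to 24619075 counts per library.

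Counts were tested with edgeR 4.0.16 in R 4.3.3 (filterByExpr, TMM, robust quasi-likelihood F-test), foamy over non-foamy, adjusted by Benjamini-Hochberg over 11303 genes, with a threshold of 0.05. SEs were derived from the fold change and its F. Means are TMM-normalized CPM, or RPKM from it and the deposited lengths. Ratios were tested with scipy 1.17.1. Alternatives were RLE, upper-quartile and total-count scaling, DESeq2 1.42.0, limma-voom (limma 3.58.1), no filter, a stricter filter (10 counts in 3 libraries, mean of 5 CPM), the replicate block, 1.5-fold testing, mitochondrial and ribosomal protein genes left out, and each library left out. The fit was tested on simulated data, where it called 6.2% of 2-fold, 55.1% of 4-fold, 68.1% of 8-fold and 88% of 16-fold changes. A gene that was not called may therefore still differ.

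The members and lists were chosen with earlier results of these data known. Named genes were the 10 members and, per pathway list, called genes (up to 5 by p) and the 2 uncalled genes highest per length; marker genes are given beside the results, and Alox15 was named after its values were seen. Replicates of a group differed beyond sampling noise, by 54.6 to 164 in chi-square per degree of freedom.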

Additional observations from a re-analysis of the deposited data

How the results depend on the processing

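The 4 calls of Pla2g4a, Ptgs1, Ptgs2 and Ptger4 held under all 16 alternatives. The number of genes called over the whole table was 611, against 1173 with DESeq2, 391 with the replicate block, 276 in the test against a 1.5-fold change and 271 to 579 with 1 library left out (346, 316 and 271 without foamy replicates 1, 2 and 3, and 366 without non-foamy replicate 2). With total counts as the only scaling 779 were called, 78.8% of them lower instead of 53.7%, and the median log2 fold change over tested genes was -0.31 instead of -0.04. Under that scaling Alox5ap was called (-0.86), Lta4h (-0.22) and Mgst3 (-0.16) changed sign, and 1 other pathway gene was called higher instead of 2. That count was 1 with limma-voom and with the replicate block, 0 in the 1.5-fold test and 0 to 1 with 1 library left out. Alox5 was not called with limma-voom (-3.02) and ran from -3.58 to -2.48 with 1 library left out; Alox5ap was called by DESeq2 (-0.59) and ran from -0.69 to -0.49. With 1 library left out, Lta4h ran from -0.0027 to 0.14, Ptges from -0.58 to 2.74, Cyp4f18 from -0.35 to 0.19 (0.02 without a filter), Ephx1 from -0.52 to 0.08 and the log2 difference of the Ptges to Hpgds ratio from -1.61 to 1.75. The stricter filter left Ptges untested, and a ratio with no count added could not be formed for it. Same-numbered libraries shared only a number (correlations of their deviations of -0.071, -0.023 and -0.031), and the replicate block changed no member's call. The causes of these changes were not tested.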
